A study of Mus musculus with 25 samples.

Results

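The genes described here encode the protein subunits of the mitochondrial respiratory chain and the ATP synthase, with the assembly factors of complex I that share the Nduf prefix. They were taken by name: a symbol, reached from the probe's RefSeq accession, had to begin with Nduf, Uqcr, Cox4 to Cox8 or Atp5, or be Sdha, Sdhb, Sdhc or Sdhd. Of 93 such genes on the array, 90 passed a filter that asked for a probe well above background on 5 or more of the 25 arrays, out of 15104 genes that passed in all. Each of the 90 was above background on all 25 arrays. Cox8b was above background on 3 arrays and Cox7b2 and Cox8c on none, so these isoforms were not tested.

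Each of 25 female C57BL/6NcrSlc mice, in 5 groups of 5, gave a liver whose RNA was hybridised to its own single-colour Agilent array. Their age is not in the labels. The controls were unstimulated livers, and no group given vehicle alone was analysed here. All other mice received concanavalin A (ConA) at 10 mg/kg, a lectin used to provoke hepatitis through T cells, followed after 15 min by vehicle or by 1 mg/kg BW245C, an agonist of the prostaglandin D2 receptor DP1. Livers were taken at 3 hr or 24 hr, so that the other groups were ConA + vehicle and ConA + BW245C at each time.

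Large complexes of the inner mitochondrial membrane pass electrons from NADH and succinate to oxygen, and complexes I, III and IV pump protons as they do so. The ATP synthase, complex V, uses the returning protons to make ATP. Most subunits are encoded in the nucleus and imported, a few of the central ones are encoded by mitochondrial DNA, and the hepatocyte is rich in mitochondria because urea synthesis, gluconeogenesis and fatty acid oxidation depend on them.

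By role, 7 of the 90 genes encode core subunits of complex I that carry its flavin and iron-sulphur clusters or bind its quinone, 29 encode supernumerary subunits of complex I and 8 encode its Ndufaf assembly factors. Complex II has 4 genes, complex III has 8, complex IV has 17 with Ndufa4 and Ndufa4l2 counted there, and complex V has 17. The 13 subunits encoded by mitochondrial DNA had no named probe and are not described. Levels are given as log2 signal with the 75th percentile of each array set to 0. Changes are differences of group means ± the standard error of a limma fit over all 25 arrays, and a change was called at a Benjamini-Hochberg adjusted p under 0.05 over the 15104 genes.

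The share of spots well above background was between 52.2% and 61.6% on every array, and precision is limited by the 5 arrays in each group. The arrays lay on 5 slides entangled with the groups, so that untreated livers never shared a slide with ConA + vehicle livers of 24 hr. Of the 4 mice on slide 2, 3 stood high within their groups: untreated mouse 2 was the highest of its group for 80 of the 90 genes, ConA + vehicle 3 hr mouse 2 for 67, and ConA + BW245C 24 hr mouse 3 for 79. ConA + vehicle 24 hr mouse 5, on slide 4, was the highest of its group for 81 genes. ConA + vehicle 3 hr mouse 4, on slide 3, was the lowest of its group for 72 genes. Each mouse named as highest also had the lowest 75th percentile signal of its group, the value its array was scaled by. These were 300.9, 222.6, 302.6 and 340.1 in the order named. ConA + vehicle 3 hr mouse 4 had the highest of its group (316.7). The part of the scaling in the order of the mice was not tested. Because of the slides, values with the slide as a block, or within a slide, are given beside the results. Hepatocyte markers were high in all 25 samples, with a summed signal between 5410 and 13000 times the 75th percentile of the array. ConA + BW245C 24 hr mouse 4 also had a log2 signal of 5.62 for Cela1, a pancreatic elastase, against at most -1.83 in the other 24 livers.

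At 24 hr after ConA + vehicle the respiratory chain genes were lower almost without exception. Of the 90 genes, 85 fell and 5 rose, against 39.1% of all genes lower and 29.8% higher in the same comparison. The median change was -1.19 on the log2 scale, a 2.28-fold fall, while the median over all 15104 genes was -0.08. The 75th percentile by which each array was scaled had a median of 328 in untreated livers and 436 in these. The fall under other scalings is given at the end. In 66 of the 90 genes the fall exceeded 2-fold, against 15% of all genes. In all 85, every ConA + vehicle liver at 24 hr was below every untreated liver, where 36.7% of all genes were separated downward. In 4 of the 5 rises the groups were separated upward, where 27.3% of all genes were. In bulk liver, fewer hepatocytes and less RNA per hepatocyte cannot be told apart, and 11 of 12 hepatocyte markers fell beside these genes and 1 rose, with a median of -1.02. Their summed signal was 8800 to 10200 in untreated livers and 5410 to 7120 at 24 hr. With the slide as a block, 8 of 12 markers were lower and 1 higher at a median of -0.60. Of 9 neutrophil markers 7 rose and none fell, with a summed signal of 116 to 128 in untreated livers and 261 to 392 at 24 hr. Of 9 T and NK cell markers 8 rose, although their summed signals overlapped (41.2 to 80.4 and 48.4 to 79.6), and under the slide block 6 were higher and 1 lower. Of 6 Kupffer cell markers 5 fell, with a summed signal of 62.3 to 98.2 and then 8.36 to 24.2, and of 5 monocyte and macrophage markers 2 fell and 1 rose (37.2 to 52.0 and then 19.8 to 25.6). Of 8 stellate cell and pericyte markers 5 fell and 1 rose, or 4 and none under the slide block. Of 6 sinusoidal endothelium markers 4 fell and 1 rose, and of 5 cholangiocyte markers 2 rose and none fell. The part of these changes in the fall, or in the 5 rises, was not tested.

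With the slide as a fixed block, 80 of the 90 genes were still lower and 1 was higher, at a median of -0.98. On slide 3, which held 1 ConA + vehicle liver of 24 hr and 2 of 3 hr, 86 of the 90 genes were lower at 24 hr, at a median of -0.98. With any 1 mouse left out, 85 genes were again lower and 5 higher.

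**Figure D1:**
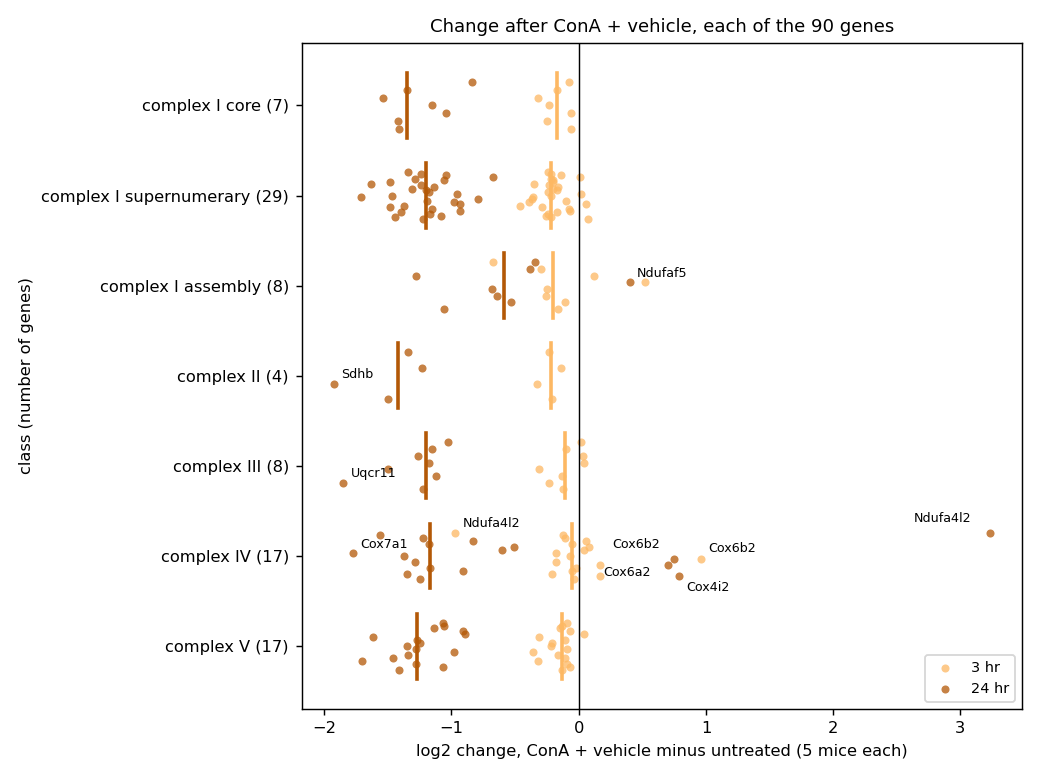
Log2 change of each of the 90 genes after ConA + vehicle against untreated livers, at 3 hr (light) and 24 hr (dark), by class, with a vertical bar at each class median. At 24 hr all classes lie left of 0 except 5 labelled genes, while at 3 hr the class medians lie between -0.22 and -0.05.

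Complex II, succinate dehydrogenase, which links the citric acid cycle to the chain, had the lowest class median (-1.42). Sdhb, its iron-sulphur subunit, had the largest fall of the 90 genes. Its log2 signal was 7.10, 7.52, 7.36, 7.28 and 7.21 in the untreated mice and 5.34, 5.29, 5.44, 5.15 and 5.66 in the ConA + vehicle mice at 24 hr. The groups were separated by a gap wider than the range of either group, and the fall was 3.77-fold (log2 -1.92 ± 0.13, adjusted p = 1.03e-11 in limma). Sdha, the flavoprotein that oxidises succinate, changed by -1.50 ± 0.10, and the membrane anchors Sdhc and Sdhd by -1.23 ± 0.09 and -1.34 ± 0.08.

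All 7 core subunits of complex I, the NADH dehydrogenase, fell, with a median of -1.35. Ndufs8, which holds iron-sulphur clusters near the quinone site, was at 3.90, 4.24, 4.01, 3.98 and 4.12 in untreated livers and at 2.47, 2.53, 2.58, 2.39 and 2.58 at 24 hr. That fall of 2.91-fold (log2 -1.54 ± 0.12, adjusted p = 1.26e-10 in limma) was the largest of the core. Ndufs1, the largest iron-sulphur subunit, had values of 5.44, 5.72, 5.54, 5.48 and 5.50 in untreated livers and 4.03, 4.09, 4.22, 4.03 and 4.25 at 24 hr, again without overlap. Its change was -1.41 ± 0.09. Ndufv1, which binds the flavin that takes electrons from NADH, was at 7.01 to 7.22 in untreated livers and 5.6 to 5.94 at 24 hr (log2 -1.35 ± 0.09). Other core changes were -1.15 ± 0.12 for Ndufs7, -1.04 ± 0.09 for Ndufs3 and, least of the 7, -0.84 ± 0.10 for Ndufv2.

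All 29 supernumerary subunits of complex I fell, with changes from -1.71 to -0.67. The largest falls were in Ndufb10 (-1.71 ± 0.13) and Ndufb8 (-1.63 ± 0.10), both of the membrane arm. Ndufab1, the mitochondrial acyl carrier protein that also serves fatty acid synthesis, fell less (-0.79 ± 0.16) and was not called under the slide block (-0.37, adjusted p = 0.162 in limma). Ndufs4, an accessory subunit of the matrix arm, had the smallest fall of the class at -0.67 ± 0.10.

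The Ndufaf assembly factors, which help to build complex I and are not part of the finished enzyme, were the class that moved least, with a median of -0.58 and 7 of 8 lower. No test compared the classes. Ndufaf6 (-1.28 ± 0.08) and Ndufaf1 (-1.06 ± 0.09) fell as much as many subunits, whereas Ndufaf8 and Ndufaf7 changed by -0.34 ± 0.10 and -0.38 ± 0.09. Ndufaf5, a hydroxylase that modifies a core subunit, was higher in place of lower. Its values were -0.50, -0.16, -0.58, -0.35 and -0.54 in untreated livers and 0.14, -0.13, -0.11, -0.17 and 0.13 at 24 hr, where the groups overlapped slightly. The rise was 1.32-fold (log2 0.40 ± 0.13, adjusted p = 0.00843 in limma). With the slide as a block, Ndufaf2, Ndufaf3, Ndufaf5, Ndufaf7 and Ndufaf8 were not called, at adjusted p between 0.0962 and 0.372 in limma.

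Complex III, which passes electrons from ubiquinol to cytochrome c, had all 8 genes lower with a median of -1.20. Uqcr11, its smallest subunit, was at 7.26, 7.50, 7.26, 7.29 and 7.29 in untreated livers and at 5.34, 5.34, 5.47, 5.37 and 5.84 at 24 hr, with mouse 5 the highest. The fall was 3.60-fold (log2 -1.85 ± 0.14, adjusted p = 4.31e-11 in limma). Uqcrfs1, the Rieske iron-sulphur protein, changed by -1.26 ± 0.08, and the core proteins Uqcrc1 and Uqcrc2 by -1.50 ± 0.10 and -1.18 ± 0.10.

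All 17 genes of complex V fell, with a median of -1.27. Atp5d, the delta subunit of the rotor stalk, was at 5.77, 6.00, 5.80, 5.81 and 5.80 in untreated livers and at 3.94, 4.05, 4.20, 4.03 and 4.44 at 24 hr. Its fall of 3.25-fold (log2 -1.70 ± 0.13, adjusted p = 7.26e-11 in limma) was the largest of the complex, followed by Atp5k (-1.62 ± 0.12). The catalytic beta subunit Atp5b moved less, from 8.62 to 8.83 in untreated livers to 7.52 to 7.83 at 24 hr (log2 -1.07 ± 0.07), and its partner Atp5a1 changed by -1.41 ± 0.09. Atp5o, the stalk subunit that confers oligomycin sensitivity, was at 5.53 to 5.62 in untreated livers and 4.40 to 4.81 at 24 hr (log2 -1.06 ± 0.08). The 3 genes that encode the same proton-carrying c subunit, Atp5g1, Atp5g2 and Atp5g3, changed by -1.34 ± 0.12, -0.98 ± 0.09 and -1.28 ± 0.11. Atpif1, the inhibitor of the synthase that lies outside the naming rule, changed by -0.56 ± 0.09.

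**Figure D2:**
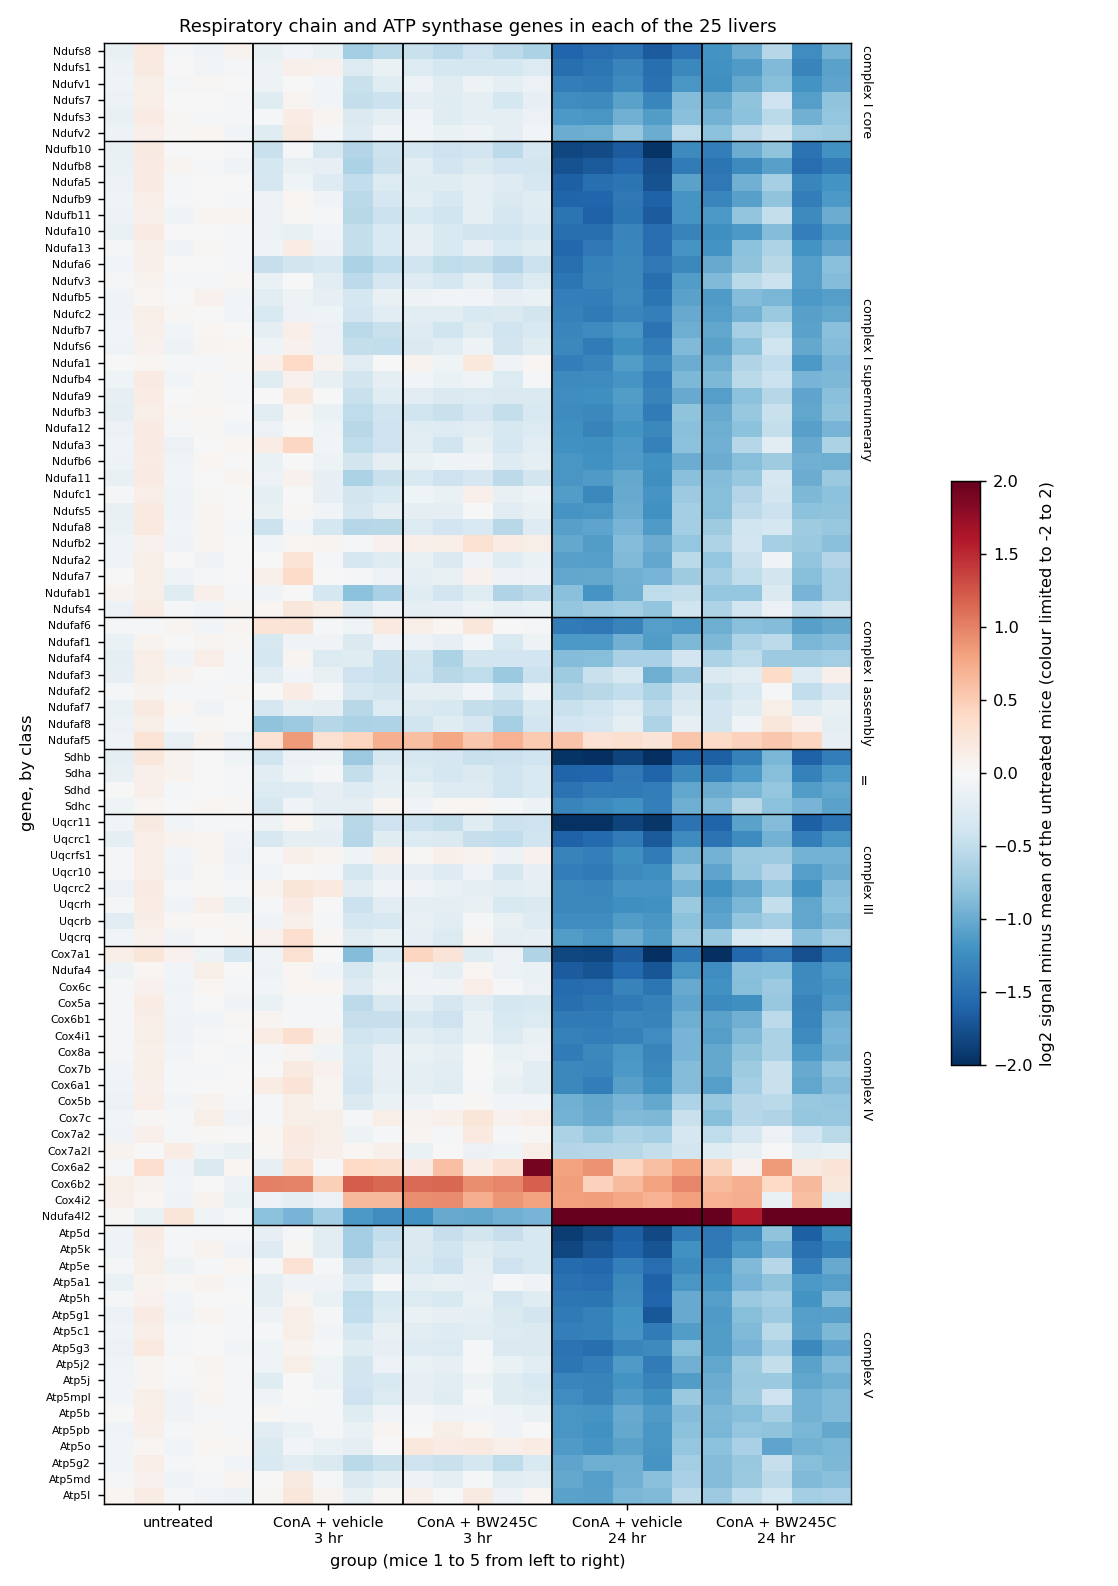
Log2 signal of the genes (rows, by class, ordered by their 24 hr change) in each of the 25 livers (columns), minus the mean of the untreated livers, with the colour limited to -2 to 2. The 24 hr columns are blue in nearly all rows, palest in ConA + BW245C mice 3 and 2 and, among ConA + vehicle livers, in mouse 5. Ndufa4l2 is the row that turns dark red.

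Complex IV, cytochrome c oxidase, held 4 of the 5 genes that rose, and all 4 are alternative isoforms of subunits whose usual liver form fell. Bulk liver does not show whether both forms of a pair changed in the same cells. The other 13 of its 17 genes fell. Cox4i1, the general form of the largest nuclear-encoded subunit, was at 7.68, 7.81, 7.62, 7.68 and 7.69 in untreated livers and at 6.35, 6.32, 6.34, 6.45 and 6.76 at 24 hr. Its change was -1.25 ± 0.13, beside -1.35 ± 0.11 for Cox5a and -0.91 ± 0.09 for Cox5b. Cox7b and Cox8a changed by -1.18 ± 0.11 and -1.22 ± 0.10.

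The widest divergence was between Ndufa4 and its relatives. Ndufa4 was first placed in complex I and is now known as a subunit of complex IV, Ndufa4l2 is a paralogue induced in hypoxia, and AA467197 is a further paralogue known to be induced in inflammation. Ndufa4 was at 6.30, 6.43, 6.35, 6.51 and 6.40 in untreated livers and at 4.74, 4.67, 4.85, 4.68 and 5.23 at 24 hr, a fall of 2.96-fold (log2 -1.56 ± 0.11, adjusted p = 9.99e-12 in limma). Ndufa4l2 went the other way: it was at -0.52, -0.67, -0.30, -0.62 and -0.57 in untreated livers and at 3.18, 2.72, 2.49, 2.38 and 2.72 at 24 hr. Every 24 hr liver was far above every untreated liver, and the rise was 9.39-fold (log2 3.23 ± 0.21, adjusted p = 5.94e-12 in limma). It was the only one of the 5 rises that was still called with the slide as a block (log2 3.89).

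AA467197 does not carry the family name and is not among the 90 genes. Its probe was not well above background in any untreated liver, and was above it in all 5 ConA + vehicle livers at both times. Its log2 signal was 0.07, -0.72, -0.88, -1.14 and -1.28 at 3 hr and 2.68, 3.08, 2.52, 2.58 and 2.46 at 24 hr. Against the lowest signal measurable in the untreated arrays, this was at least 14.5-fold higher at 3 hr and at least 159-fold higher at 24 hr (adjusted p = 1.58e-10 and 3.79e-14 in limma). The 3 relatives therefore followed 3 courses: Ndufa4 lower at 24 hr, Ndufa4l2 lower at 3 hr and higher at 24 hr, and AA467197 higher at both.

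Cox6b2, the testis form of the subunit that joins the oxidase dimer, was at -1.41, -1.45, -1.58, -1.53 and -1.64 in untreated livers and at -0.68, -1.06, -0.89, -0.71 and -0.54 at 24 hr. All 5 were above the untreated range, and the rise was 1.68-fold (log2 0.75 ± 0.12, adjusted p = 1.14e-05 in limma), or 0.29 under the slide block (adjusted p = 0.15). Cox6b1, the general form, was at 4.00, 4.17, 3.96, 3.97 and 4.05 and then at 2.61, 2.61, 2.72, 2.69 and 3.06, a fall of 2.45-fold (log2 -1.29 ± 0.13). Cox6a2, the heart and muscle form, was at -2.86 to -3.49 in untreated livers and -2.30 to -2.78 at 24 hr. That rise of 1.63-fold (log2 0.70 ± 0.24, adjusted p = 0.0119 in limma) had the same size with the slide as a block (0.71) but was not called (adjusted p = 0.199). Cox6a1, the form of liver and most tissues, was at 9.0 to 9.19 and then 7.71 to 8.22 (log2 -1.17 ± 0.12).

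Not every tissue-specific isoform rose. Cox7a1, the heart and muscle form, was at 1.23, 1.34, 1.18, 1.00 and 0.75 in untreated livers and at -0.72, -0.73, -0.57, -0.97 and -0.35 at 24 hr, a larger fall (log2 -1.77 ± 0.20) than in Cox7a2 (-0.60 ± 0.09), the liver form, which was at 5.75 to 5.92 and then 5.07 to 5.49. Cox7a2l, which takes part in joining complexes III and IV into supercomplexes, changed by -0.51 ± 0.07. Of 7 skeletal muscle markers, Ckm, Myh1, Myh4, Myl1 and Tnnt3 were not well above background, and neither of the other 2, Acta1 (-0.60) and Atp2a1 (0.08), was called at 24 hr, although 1 of the 2 was lower under the slide block.

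Cox4i2, the hypoxia-inducible partner of Cox4i1, was the one rise that followed the slide. It was at -0.05, -0.11, -0.22, -0.08 and -0.29 in untreated livers and at 0.67, 0.68, 0.62, 0.54 and 0.67 at 24 hr (log2 0.79 ± 0.18, adjusted p = 0.000442 in limma). Over all groups, however, the 10 arrays of slides 1, 2 and 5 were at -0.36 to -0.05 and the 15 arrays of slides 3 and 4 at 0.45 to 0.79. At 3 hr, ConA + vehicle mice 1, 2 and 3 on slides 1 and 2 were at -0.27, -0.35 and -0.27, and mice 4 and 5 on slide 3 both at 0.50. Cox4i2 was the only one of the 90 genes separated in this way, a pattern that was noticed after the values were seen, and 3.17% of all genes were. With the slide as a block its change at 24 hr was 0.00 (adjusted p = 0.987 in limma). Untreated and ConA + vehicle 24 hr livers shared no slide, so in that comparison alone the slide and the treatment cannot be told apart.

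**Figure D3:**
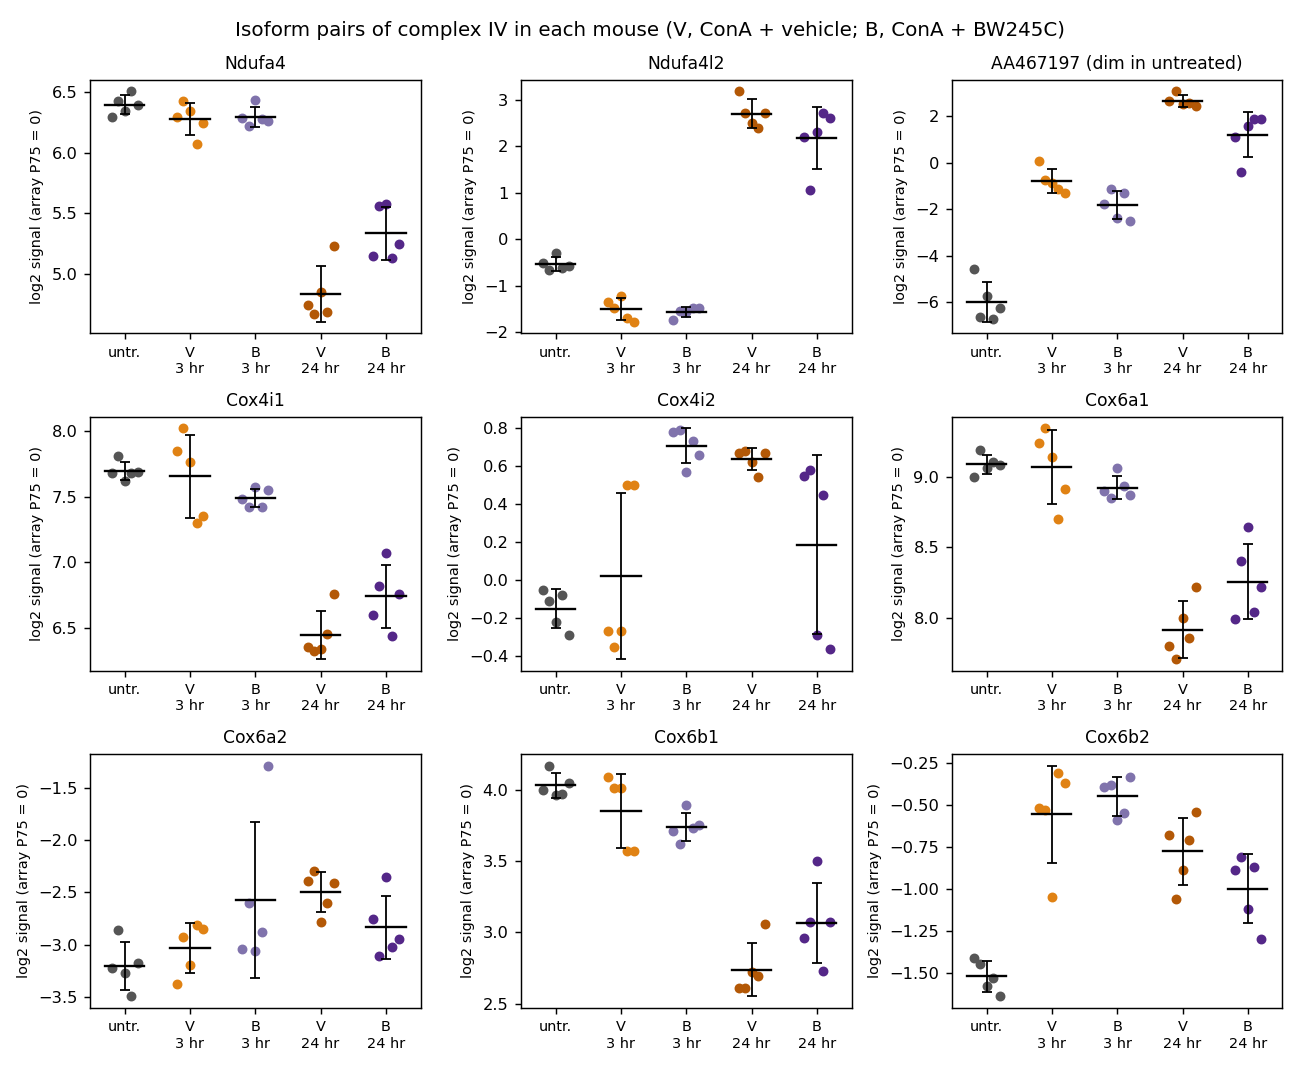
Log2 signal in each mouse (points), with group mean and SD (bars, n = 5), for isoform pairs of complex IV in untreated livers and after ConA + vehicle (V) or ConA + BW245C (B). Ndufa4, Cox4i1, Cox6a1 and Cox6b1 drop at 24 hr while Ndufa4l2 and AA467197 climb, and the Cox4i2 values form separate low and high levels within the groups that span several slides; the untreated AA467197 points were not well above background.

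Since these genes moved together, the 250 bases before the start of transcription, from RefSeq on the GRCm38.p6 build, were searched for motifs of factors known to control respiratory chain genes. A promoter was listed for 74 of the 90 genes, and the first one listed was used. On either strand, the NRF1 motif, GCGC and TGCGC with any 1 base between them, was found in 13 of the 74 (17.6%) against 3.86% of the promoters of 27025 genes. Those 27025 were not limited to genes detected in these livers, and no test compared the shares. The ETS motif CCGGAAG, bound by the GABPA family, was found in 13 (17.6%) against 7.05%, and the oestrogen-related receptor motif AAGGTCA in 5 (6.76%) against 4.05%. Both the NRF1 and the ETS motif were found in 3 promoters. Shown for each motif is the holder with the largest fall, then Cox6b1 and Cox6b2, the only 1 of the 4 isoform pairs that moved in opposite directions with a promoter listed for both, with the motifs in capitals. Atp5k, a small membrane subunit of the ATP synthase, lies on the minus strand (chr5:108434400-108434649) and holds the NRF1 motif, Uqcr11 on the minus strand (chr10:80406822-80407071) holds the ETS motif, and Atp5g3 on the minus strand (chr2:73911327-73911576) holds the receptor motif in reverse. Cox6b1 on the minus strand (chr7:30626115-30626364) holds the ETS motif in reverse, and Cox6b2 on the minus strand (chr7:4753095-4753344) holds none of the 3.
Atp5k: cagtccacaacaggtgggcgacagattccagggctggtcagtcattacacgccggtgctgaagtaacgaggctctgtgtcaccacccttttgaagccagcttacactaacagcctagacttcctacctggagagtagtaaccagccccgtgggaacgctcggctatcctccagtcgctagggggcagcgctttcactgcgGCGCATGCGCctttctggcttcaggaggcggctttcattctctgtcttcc
Uqcr11: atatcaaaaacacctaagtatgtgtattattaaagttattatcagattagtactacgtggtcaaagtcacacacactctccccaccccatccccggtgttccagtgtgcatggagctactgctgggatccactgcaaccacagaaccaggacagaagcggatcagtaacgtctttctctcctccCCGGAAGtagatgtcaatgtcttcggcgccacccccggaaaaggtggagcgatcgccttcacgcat
Atp5g3: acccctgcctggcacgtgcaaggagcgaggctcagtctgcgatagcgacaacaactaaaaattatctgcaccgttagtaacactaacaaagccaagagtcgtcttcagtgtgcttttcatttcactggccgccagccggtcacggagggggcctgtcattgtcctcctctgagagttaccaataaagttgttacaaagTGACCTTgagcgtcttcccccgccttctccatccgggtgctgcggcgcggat
Cox6b1: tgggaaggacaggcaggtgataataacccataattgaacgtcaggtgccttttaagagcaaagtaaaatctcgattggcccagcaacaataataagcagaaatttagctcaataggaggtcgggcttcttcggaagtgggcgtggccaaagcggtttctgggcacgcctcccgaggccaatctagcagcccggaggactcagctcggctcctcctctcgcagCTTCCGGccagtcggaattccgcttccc
Cox6b2: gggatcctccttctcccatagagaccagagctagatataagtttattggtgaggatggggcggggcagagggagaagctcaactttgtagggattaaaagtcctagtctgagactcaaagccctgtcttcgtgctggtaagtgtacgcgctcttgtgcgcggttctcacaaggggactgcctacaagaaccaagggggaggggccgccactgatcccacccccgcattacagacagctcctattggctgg
A match is a description of these letters and not a binding site. The median change at 24 hr was -1.20 in the 13 genes with the NRF1 motif and -1.19 in the 61 without it, and -1.17 with and -1.20 without the ETS motif. The 5 genes with the receptor motif had a median of -1.04 against -1.22 in the other 69.

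At 3 hr after ConA + vehicle the same genes had moved little. Of the 90 genes 22 were called, 2 higher and 20 lower, against 62% of all genes called, 25% higher and 37.1% lower. All 5 livers lay above the untreated range in 2 genes and below it in 10, against 18.2% and 29.2% of all genes. The median change was -0.15 and no change reached 2-fold, while 12.7% of all genes fell by more than that. Hepatocyte markers were on the higher side at this time, 6 of 12 higher and none lower, with a median of 0.16. Of 8 stellate cell and pericyte markers 6 were lower and none higher, with a median of -1.35, or 5 lower under the slide block.

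The 20 lower genes lay in each class, with 8 of 29 supernumerary subunits of complex I, 4 of 17 genes of complex V and 1 of 17 of complex IV. Ndufa4l2 had the largest fall: it was at -1.36, -1.47, -1.22, -1.69 and -1.78, all below the untreated range (log2 -0.97 ± 0.21, adjusted p = 0.000409 in limma). Ndufaf8, the partner of Ndufaf5, was at 0.83, 1.06, 0.93, 0.98 and 0.95 in untreated livers and at 0.14, 0.22, 0.38, 0.32 and 0.34 at 3 hr, and its fall of 1.59-fold (log2 -0.67 ± 0.10, adjusted p = 6.18e-06) was followed at 24 hr by values of 0.56, 0.61, 0.75, 0.34 and 0.79. Ndufa6 (-0.46 ± 0.09), Ndufa8 (-0.39 ± 0.11), Ndufab1 (-0.37 ± 0.16), Ndufb10 (-0.36 ± 0.13), Atp5g2 (-0.36 ± 0.09) and Ndufb8 (-0.35 ± 0.10) were next. This order holds for the brightest probe of each gene. The other probe of Atp5g2 changed by only -0.16. The other probes of Ndufaf4 and Ndufv3 changed by -0.78 and -0.75, against -0.25 and -0.24 in the probes used. Sdhb, at 6.89, 7.18, 7.20, 6.57 and 6.98, changed by -0.33 ± 0.13.

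Both genes that rose at 3 hr were also higher at 24 hr. Cox6b2 was at -0.52, -0.53, -1.05, -0.31 and -0.37, all above the untreated range, a rise of 1.95-fold (log2 0.96 ± 0.12, adjusted p = 3.68e-07 in limma). On slide 1 its difference was 0.49 and on slide 2 it was 0.93. Ndufaf5 was at -0.14, 0.42, -0.12, 0.00 and 0.28, a rise of 1.43-fold (log2 0.52 ± 0.13, adjusted p = 0.00131). Both were still called with the slide as a block.

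The count of lower genes at 3 hr depended on the livers and on the scaling. ConA + vehicle mice 4 and 5, on slide 3, had medians over the 90 genes of -0.38 and -0.24 relative to the untreated mean, and mice 1, 2 and 3 had -0.11, 0.04 and -0.05. Without mouse 4 the comparison had 10 calls, without mouse 2 it had 35, and without untreated mouse 2 it had 11. Under the slide block 2 genes were higher and 7 lower, whereas quantile normalization gave 60 lower and the deposited series values 66. The median over all genes was -0.09, and -0.14 and -0.20 under those 2 scalings.

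Between 3 hr and 24 hr of ConA + vehicle, 86 of the 90 genes were called, 83 lower and 3 higher, against 68.4% of all genes called, 35.3% lower and 33.2% higher. The groups were separated downward in 80 genes and upward in 3, against 27.4% and 24.9% of all genes. The median was -1.06. Ndufa4l2 climbed 18.4-fold (log2 4.20 ± 0.21, adjusted p = 1.3e-13 in limma), and by 4.91 on slide 3 alone. The other rises were in Cox4i2 (0.62 ± 0.18, and 0.17 within slide 3) and Ndufaf8 (0.33 ± 0.10). Uqcr11 (-1.62 ± 0.14), Sdhb (-1.59 ± 0.13), Cox7a1 (-1.58 ± 0.20), Ndufa4 (-1.45 ± 0.11) and Ndufaf6 (-1.40 ± 0.08) fell most. This comparison shares its 24 hr livers with the one against untreated livers.

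**Figure D4:**
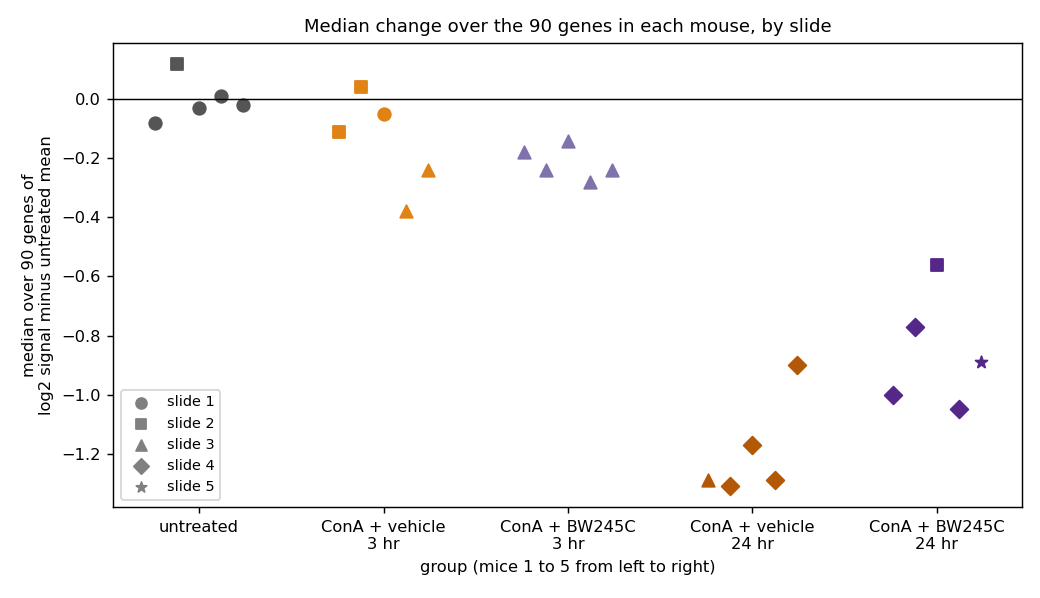
Median over the 90 genes of the log2 signal minus the untreated mean, for each mouse (points), with the slide as the marker shape. The livers at 3 hr lie between -0.38 and 0.04, those of ConA + vehicle at 24 hr between -1.31 and -0.90, and those of ConA + BW245C at 24 hr between -1.05 and -0.56.

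The agonist BW245C was compared with vehicle after the same dose of ConA. At 24 hr, 61 of the 90 genes were higher with BW245C and none was lower, against 26.6% of all genes called, 17.6% higher and 8.95% lower. At an unadjusted p under 0.05 the limma fit had 80 genes, 78 of them higher. The differences were small beside the fall itself, with a median of 0.32 (1.25-fold) and none as large as 2-fold. The 75th percentile by which each array was scaled had a median of 436 with vehicle and 385 with BW245C. Its part in the difference was not tested. With quantile normalization 45 of the 61 calls were kept, 16 were lost and 3 were gained. In 8 of the 90 genes, Ndufaf3, Ndufaf6, Ndufs8, Ndufa6, Ndufv3, Uqcrfs1, Cox7a2l and Atp5j, the groups were separated upward, against 12% of all genes, and in none downward, against 5.41%.

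By class, 28 of 29 supernumerary and 4 of 7 core subunits of complex I were higher, as were 3 of 8 assembly factors, all 4 genes of complex II, 4 of 8 of complex III, 6 of 17 of complex IV and 12 of 17 of complex V. Ndufaf3, an assembly factor of the quinone module, had the largest difference. It was at 0.76, 1.03, 1.15, 0.49 and 0.74 with vehicle and at 1.18, 1.26, 1.84, 1.21 and 1.57 with BW245C, without overlap (1.49-fold, log2 0.58 ± 0.13, adjusted p = 0.00196 in limma). Ndufs8 was at 2.85, 3.05, 3.48, 2.80 and 3.1 with BW245C, above all 5 vehicle livers (1.46-fold, log2 0.55 ± 0.12, adjusted p = 0.00208). Ndufv3 (0.57 ± 0.11), Ndufb11 (0.54 ± 0.13), Ndufb10 (0.53 ± 0.13), Uqcr11 (0.52 ± 0.14) and Ndufa6 (0.51 ± 0.09) were next. Sdhb was at 5.66, 5.94, 6.38, 5.67 and 5.91 (log2 0.53 ± 0.13, adjusted p = 0.00417), and the lowest of these was level with the highest vehicle liver. Ndufa4 was at 5.15, 5.56, 5.58, 5.13 and 5.25, overlapping vehicle mouse 5 (log2 0.50 ± 0.11, adjusted p = 0.00145).

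Among other subunits named above, the difference was 0.29 ± 0.09 for Ndufs1, 0.28 ± 0.09 for Ndufv1, 0.33 ± 0.10 for Sdha, 0.40 ± 0.08 for Uqcrfs1, 0.38 ± 0.09 for Atp5a1 and 0.22 ± 0.07 for Atp5b, all called. Cox4i1, at 6.6, 6.82, 7.07, 6.44 and 6.76, did not pass (0.29 ± 0.13, adjusted p = 0.09 in limma), nor did Cox5a (0.21 ± 0.11) or Cox5b (0.23 ± 0.09). Atpif1 was higher by 0.43 ± 0.09. The isoforms that were higher after ConA had differences on the lower side that did not pass. They were -0.52 ± 0.21 for Ndufa4l2 (adjusted p = 0.0734 in limma), -0.45 ± 0.18 for Cox4i2 (adjusted p = 0.0648 in limma), -0.34 ± 0.24 for Cox6a2 and -0.22 ± 0.12 for Cox6b2. For Cox4i2, BW245C mice 3 and 5 lay on slides 2 and 5, where its signal was low. Ndufa4l2 was at 2.19, 1.05, 2.31, 2.71 and 2.61 with BW245C, with mouse 2 the lowest, and was called lower with the slide as a block (-0.69). AA467197 was at 1.11, -0.40, 1.59, 1.89 and 1.87 with BW245C, below all 5 vehicle livers (log2 -1.46 ± 0.41, adjusted p = 0.0114).

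This difference at 24 hr rested in part on single mice and slides. The medians over the 90 genes were -1.29, -1.31, -1.17, -1.29 and -0.90 in the vehicle mice and -1.0, -0.77, -0.56, -1.05 and -0.89 in the BW245C mice, which overlap. Without BW245C mouse 3, the one on slide 2, 26 genes were called, and without vehicle mouse 1, 2 or 4 or BW245C mouse 2 there were 35, 39, 38 and 40. Under the slide block 42 genes were higher and 1 lower. On slide 4, with 4 vehicle and 3 BW245C livers, the median was 0.21 and 6 of the 90 differences were negative, and none of the 90 passed in limma, which called 369 genes in all. Unadjusted p was under 0.05 there for 15 genes that were higher and 1 that was lower. The hepatocyte markers differed alike, with 5 of 12 higher, none lower and a median of 0.33, and their summed signal was 5410 to 7120 with vehicle and 6170 to 8140 with BW245C. Neutrophil markers were lower with BW245C in 6 of 9 and higher in none, with a summed signal of 134 to 209 against 261 to 392. The part of these in the difference was not tested.

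The livers given BW245C remained below untreated livers at 24 hr. Against untreated livers, 81 of the 90 genes were lower and 3 higher in them, against 33.8% and 22.7% of all genes, at a median of -0.86. For the mean log2 signals of untreated, vehicle and BW245C livers, Sdhb gave 7.29, 5.38 and 5.91, Ndufs8 4.05, 2.51 and 3.05, and Atp5b 8.70, 7.63 and 7.85. Ndufaf3, at 1.47, 0.83 and 1.41, had a BW245C mean close to the untreated mean, as did Ndufaf8 at 0.95, 0.61 and 0.89. These comparisons share their livers, so the values are set side by side with no test of one against the other.

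At 3 hr BW245C made little difference to these genes. Of the 90, 2 were higher and 1 lower, against 28.6% of all genes called, 11.7% higher and 16.9% lower, and the median was -0.04. The groups were separated upward in 3 genes and downward in 1, against 3.99% and 9.5% of all genes. Cox4i2, at 0.78, 0.79, 0.57, 0.73 and 0.66 with BW245C, was higher by 0.69 ± 0.18 (adjusted p = 0.00718 in limma), but all 5 of these arrays lay on slide 3, and the 2 vehicle livers there were both at 0.50. Atp5o, at 5.79, 5.73, 5.75, 5.68 and 5.72 against 5.29, 5.52, 5.44, 5.38 and 5.59, was higher by 0.29 ± 0.08. Ndufs1, at 5.27, 5.18, 5.19, 5.18 and 5.27 against 5.44, 5.63, 5.62, 5.27 and 5.40, differed by -0.26 ± 0.09 (adjusted p = 0.0295), with the highest BW245C livers at about the level of the lowest vehicle liver. None of the 3 was called with the slide as a block or within slide 3. Under the block limma called none of the 90 and had 15 at an unadjusted p under 0.05, all higher. Within slide 3 it called none and had 6, all higher.

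**Figure D5:**
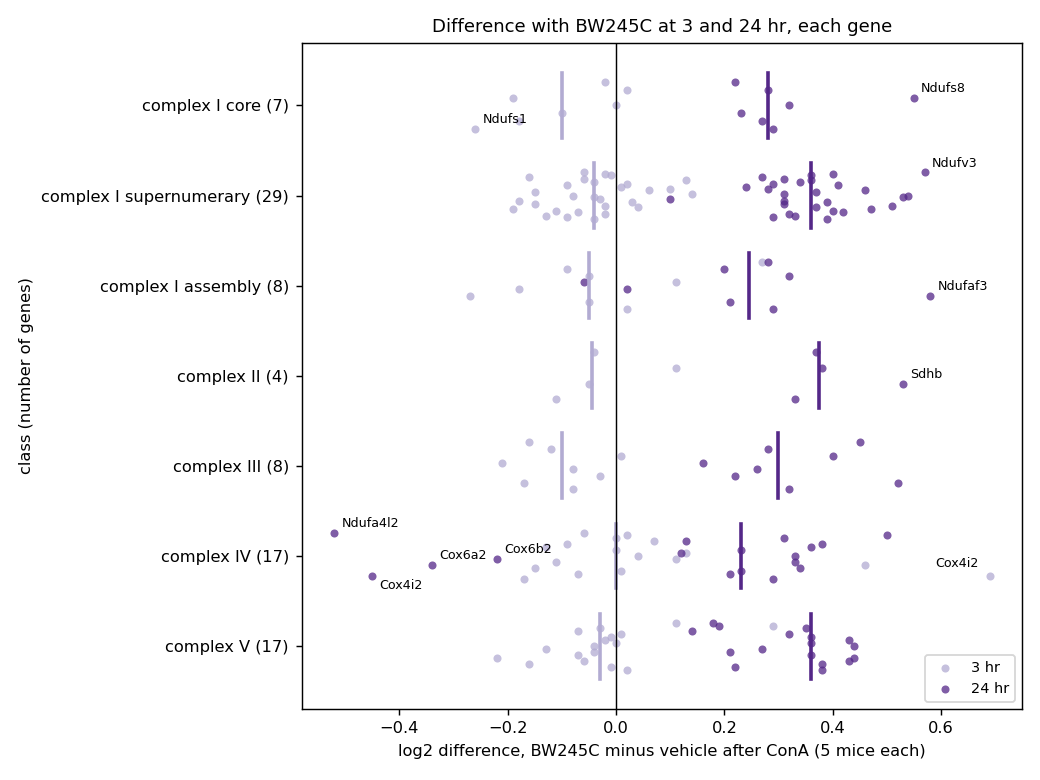
Log2 difference of each of the 90 genes between ConA + BW245C and ConA + vehicle livers, at 3 hr (light) and 24 hr (dark), by class, with a vertical bar at each class median. The 3 hr medians lie between -0.10 and 0.00 and the 24 hr medians between 0.23 and 0.37, and the 24 hr points left of 0 include Ndufa4l2, Cox4i2, Cox6a2 and Cox6b2.

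The difference between the 24 hr and 3 hr effects of BW245C was tested as an interaction. It was called positive in 39 of the 90 genes and called negative in 1, Cox4i2 (-1.14 ± 0.25), at a median of 0.37. Of all genes 30% were called, 19.3% positive and 10.8% negative. Whether called or not, the term was above 0 in 83 of the 90 genes and below 0 in 7. Ndufaf3 (0.85 ± 0.18), Ndufs8 (0.74 ± 0.17), Uqcr11 (0.69 ± 0.19), Ndufa3 (0.67 ± 0.22), Atp5e (0.67 ± 0.18), Ndufv3 (0.63 ± 0.16), Uqcrq (0.62 ± 0.16) and Ndufb11 (0.61 ± 0.18) had the largest. No call was left with the slide as a fixed block, where limma had 11 genes at an unadjusted p under 0.05, and 8 positive and 1 negative were left with the slide as a random block. Without BW245C 24 hr mouse 3 there were 19 calls and without vehicle 3 hr mouse 2 there were 25, but without vehicle 24 hr mouse 5 there were 63.

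Genes outside the naming rule that belong to the respiratory chain or serve it were described by lists. Their counts at 24 hr after ConA + vehicle stand beside 39.1% of all genes lower and 29.8% higher. At 24 hr after ConA + vehicle all 18 genes of the citric acid cycle and pyruvate dehydrogenase were lower, at a median of -1.19, led by citrate synthase Cs (-2.24), Dlat (-2.10) and Idh2 (-2.03). Of 19 electron carriers and coenzyme Q synthesis genes, 14 were lower and 2 higher, or 12 and 1 under the slide block. Coq8a, a kinase-like factor for coenzyme Q synthesis, changed by -4.12 and the electron carrier Etfa by -1.92, while Coq8b (1.15) and Coq10b (0.48) rose. Cyc1, the cytochrome subunit of complex III that the naming rule does not reach, changed by -1.92. Of 42 further assembly factors, 34 were lower and 3 higher, or 27 and 1 under the slide block, with Sco2, a copper carrier for complex IV, at -2.16, Acad9 at -1.31 and Cmc2 at -1.23, and with rises in the copper chaperone Cox17 (3.05, above background in 3 of 5 untreated livers), Coa5 (0.64) and Cox18 (0.26). Mitochondrial ribosomal proteins, which serve translation of the mitochondrially encoded subunits, moved less, 65 of 77 lower and 2 higher at a median of -0.52, or 37 lower and 3 higher with the slide as a block. Mrpl14 (-1.50), Mrpl49 (-1.31) and Mrpl12 (-1.17) fell most and Mrpl54 (0.41) and Mrpl52 (0.18) rose.

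At 3 hr these lists were mixed, beside 37.1% of all genes lower and 25% higher. In the citric acid cycle 4 genes were lower and 2 higher, with Dlat (-1.06), Cs (-0.66) and Pdha1 (-0.36) lower and Pdhx (1.39) and Fh1 (0.71) higher. Among the carriers 8 were lower and 5 higher, with Coq8a (-1.94), Coq10a (-1.38) and Coq9 (-0.47) lower and Coq10b (1.88), Coq8b (0.75) and Pdss1 (0.65) higher. Of the further assembly factors 21 were lower and 3 higher, with Sdhaf1 (-1.85), Coa4 (-1.84) and Tmem186 (-1.36) lower and Foxred1 (0.81), Sdhaf2 (0.26) and Cmc1 (0.18) higher. Of the mitochondrial ribosomal proteins 28 were lower and 9 higher, with Mrpl49 (-0.95), Mrpl34 (-0.92) and Mrps27 (-0.62) lower and Mrpl41 (0.71), Mrps18b (0.53) and Mrpl45 (0.48) higher. Under the slide block the 4 lists had 2, 7, 16 and 20 lower and 2, 4, 2 and 12 higher. With BW245C at 24 hr, 8 of 18 citric acid cycle genes, 8 of 19 carriers, 21 of 42 assembly factors and 21 of 77 ribosomal proteins were higher, with 0, 3, 1 and 0 lower, beside 17.6% and 8.95% of all genes. Under the slide block 6, 6, 18 and 15 were higher and 0, 3, 1 and 2 lower. At 3 hr of BW245C the same lists had 0, 2, 2 and 2 higher and 3, 2, 8 and 11 lower, beside 11.7% and 16.9% of all genes, and of these calls the slide block left 1 of 3, 3 of 4, 0 of 10 and 2 of 13.

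Regulators of mitochondrial biogenesis were followed at the same times. At 3 hr after ConA + vehicle, 11 of 22 were lower and 4 higher, beside 37.1% and 25% of all genes, and all 15 of these calls were kept with the slide as a block. The coactivator Ppargc1b changed by -2.22 ± 0.34, the helicase Twnk by -1.80 ± 0.09, the receptor Esrra by -1.69 ± 0.14, the polymerase subunit Polg2 by -1.56 ± 0.13, and Tfam, which packages and transcribes mitochondrial DNA, by -0.94 ± 0.08. Mterf1a (-1.54), Mterf4 (-1.08), Mterf2 (-1.02), Polrmt (-0.48), Ssbp1 (-0.44) and Gabpa (-0.23) were also lower, and Gabpb1 (1.66), Pprc1 (1.23), Nrip1 (0.50) and Mterf3 (0.26) higher. The coactivator Ppargc1a (0.08 ± 0.20), Esrrg (0.16), Nrf1 (0.14), Tfb1m (0.12), Yy1 (0.04), Polg (-0.09) and Tfb2m (-0.20) did not pass.

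At 24 hr, 16 of the 22 regulators were lower and 1 higher, beside 39.1% and 29.8% of all genes. Under the slide block 12 were lower, Pprc1 was no longer called (0.53, adjusted p = 0.0964 in limma) and Yy1 was called higher (0.36, adjusted p = 0.0133). Esrrg (-2.26 ± 0.26), Polg2 (-1.95 ± 0.13), Ppargc1b (-1.50 ± 0.34), Ppargc1a (-1.34 ± 0.20), Tfb2m (-1.25 ± 0.09), Gabpa (-1.10 ± 0.08) and Tfam (-0.85 ± 0.08) had the largest falls. Tfb1m (-0.72), Nrip1 (-0.71), Ssbp1 (-0.64), Twnk (-0.59), Mterf4 (-0.55), Esrra (-0.52), Polrmt (-0.50), Polg (-0.42) and Mterf3 (-0.32) were lower as well, and Pprc1 (0.48) was higher. Nrf1 (0.18 ± 0.09), the factor of the NRF1 motif, did not pass, nor did Yy1 (0.15), Mterf1a (0.06), Gabpb1 (-0.17) or Mterf2 (-0.43). With BW245C at 24 hr Esrrg (1.51), Polg2 (0.54), Tfb2m (0.31), Gabpa (0.27) and Tfam (0.26) were higher and none was lower, and under the slide block 4 were higher and 1 lower. With BW245C at 3 hr Ppargc1b (1.29), Nrip1 (0.85), Ppargc1a (0.62) and Esrra (0.37) were higher and Tfb1m (-0.57), Yy1 (-0.35), Gabpb1 (-0.35), Mterf4 (-0.27), Mterf3 (-0.25) and Polg (-0.19) lower, and 6 of these 10 were not called with the slide as a block, Ppargc1b among them.

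In the list of inducible genes, Acod1, which makes itaconate, an inhibitor of succinate dehydrogenase, rose by 7.52 ± 0.35 at 3 hr and 7.32 ± 0.35 at 24 hr, and Nos2, which makes nitric oxide, an inhibitor of complex IV, by 4.98 ± 0.31 and 3.80 ± 0.31. Acod1 was above background in 3 of 5 untreated livers. Hif1a (1.25 and 0.74) and Sod2 (1.25 and 0.44) were higher at both times, Bnip3 (0.59) at 3 hr and Ucp2 (0.57) at 24 hr. Pdk1, which restrains pyruvate dehydrogenase, was lower at both (-1.25 and -2.27), as was Higd1a (-0.33 and -0.28), although Higd1a was not called at 24 hr with the slide as a block. Pdk4 was lower at 3 hr (-0.85 ± 0.31) and not called at 24 hr (0.26), and the assembly factors Higd2a (-1.27) and Higd1b (-0.60) were lower at 24 hr. Under the slide block Pdk4 was called higher at 24 hr (1.05, adjusted p = 0.0449 in limma). With BW245C at 3 hr, Pdk4 (2.15 ± 0.31) and Higd1b (0.57 ± 0.15) were higher and Nos2 (-3.34 ± 0.31), Hif1a (-0.77 ± 0.13), Bnip3 (-0.42 ± 0.15) and Sod2 (-0.39 ± 0.11) lower, and Higd1b, Bnip3 and Sod2 were not called under the slide block. With BW245C at 24 hr, Higd2a (0.40 ± 0.10) was higher and Nos2 (-1.81 ± 0.31), Acod1 (-1.73 ± 0.35), Pdk4 (-1.69 ± 0.31), Hif1a (-0.79 ± 0.13) and Higd1a (-0.32 ± 0.11) were lower, beside AA467197. The other differences with BW245C did not pass: at 3 hr they were -0.35 for Acod1, -0.20 for Ucp2, 0.05 for Pdk1, 0.02 for Higd2a and -0.02 for Higd1a, and -1.02 for AA467197. At 24 hr they were 0.26 for Pdk1, -0.18 for Bnip3, -0.13 for Sod2, -0.11 for Higd1b and 0.07 for Ucp2.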

How the data were processed

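Per the file headers, the authors' scanner files hold Cy3 intensity values extracted by Agilent Feature Extraction 10.7.3.1 (9.1 per the submitters' processing notes), background-subtracted and not scaled between arrays. The deposited series values are the same intensity times 1 factor per array (2.42 to 3.29) on a linear scale. Flagged outlier spots were left out, and none of these genes had a missing value afterwards. The log2 intensity minus the array's 75th percentile was fitted with limma 3.58.1 in R 4.3.3, with 1 mean per group over 25 arrays. Probes well above background on at least 5 arrays were kept and a gene took its brightest. Python 3.11.15, pandas 2.3.3, numpy 2.4.6 and matplotlib 3.10.9 made promoters and figures.

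The genes and lists were chosen with earlier results of these data known. Named were the 8 largest called rises and falls per comparison, core subunits and isoform pairs, every biogenesis regulator and inducible gene, and in other lists the 3 largest each way. The values of 1 of the 90 genes are not reported here, although it counts in totals and medians. Same-number mice were not paired: their correlations ran from -0.361 to 0.342. The slide block on gene lists other than these genes was added after seeing the data. Alternatives covered background (normexp, offset 50), scaling, filters, probes, trend, blocks, slides and left-out mice.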

Additional observations from a re-analysis of the deposited data

Results flagged for a closer look

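In the groups of 5 mice, 110 in all for 22 genes described mouse by mouse, 9 had a mouse set apart from the others by Dixon's test, which by chance marks about 1 group in 20. ConA + vehicle 24 hr mouse 5 was high in 4 of them: Uqcr11 at 5.84 with the next at 5.47, Cox6b1 at 3.06 with the next at 2.72, Cox7a2 at 5.49 with the next at 5.19, and Atp5o at 4.81 with the next at 4.51. That liver also had the highest summed hepatocyte marker signal of its group, 7120. Untreated mouse 2 was high in Uqcr11 (7.50, next 7.29) and Atp5d (6.00, next 5.81). ConA + BW245C 3 hr mouse 3 was high in Uqcr11 (7.07, next 6.91) and mouse 5 in Cox6a2 (-1.29, next -2.60). ConA + BW245C 24 hr mouse 5, alone on slide 5, was low in Ndufaf5 (-0.59, next -0.04).

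The effect of BW245C differed between 24 hr and 3 hr in 40 of the 90 genes by the interaction term. Of the genes described mouse by mouse these were Ndufaf3 (0.85), Ndufs8 (0.74), Uqcr11 (0.69), Sdhb (0.59), Ndufs1 (0.55), Atp5d (0.49), Cox6a1 (0.49), Ndufa4 (0.48) and Cox4i2 (-1.14). None was called with the slide as a fixed block.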

How the results depend on the processing

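The fall at 24 hr kept its count within 1.5 times under every alternative run, and leaving out 1 mouse gave 90 calls each time, or 85 to 87 against the 3 hr livers. Quantile normalization gave it a median of -0.77 and the deposited series values one of -0.85, the latter moving the median of all genes from -0.08 to 0.26 and their called genes from 4495 higher of 10406 to 7249 of 11032. The count at 3 hr was 22, and became 44 with normexp, 62 with quantile normalization, 68 with the series values and 9 with the slide as a fixed block. The 3 calls for BW245C at 3 hr became 7 with quantile normalization, 7 with the series values, and 0 with the fixed block or within slide 3. The 61 at 24 hr became 25 when the 2 groups were fitted alone and 0 within slide 4. The 40 of the interaction became 13 with quantile normalization, 14 with the series values, 0 and 9 with the slide as a fixed and a random block, and 26 with only the groups compared. Leaving out 1 mouse gave 10 to 35 calls for ConA at 3 hr, 2 to 4 for BW245C at 3 hr, 26 to 76 at 24 hr and 19 to 63 for the interaction. Reversed values were 0.01 for Atpif1 between 24 and 3 hr of ConA with quantile normalization and 0.00 for Cox4i2 at 24 hr with the fixed block. The cause of these changes was not tested. With the mouse number as a replicate block the counts were 26, 90, 86, 4, 63 and 42, in the order ConA at 3 hr, at 24 hr, 24 against 3 hr, BW245C at 3 hr, at 24 hr and the interaction. The numbers are not a pairing, since only 4 of the 25 arrays deviated most like another mouse of that number. The median standard error of a change was 0.11 with 5 arrays a group, beside a median BW245C difference of 0.32 at 24 hr.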
